A study of Homo sapiens with 8 samples.

Results

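The genes described here encode mitochondrial ribosomal proteins, whose symbols start with MRPL for the large and MRPS for the small subunit of the mitochondrial ribosome. They were compared between TRAIL-sensitive and TRAIL-resistant H460 cells. Members were all genes whose symbol in the platform annotation was MRPL or MRPS followed by a number, with 1 pseudogene left out and 1 antisense RNA, MRPL20-AS1, set apart. This gave 75 genes, 48 MRPL and 27 MRPS, of 19775 genes measured. The rule reads symbols and no measured value, though it was set with earlier results of these data known. For a gene with several probe sets, the one that was brightest on average was used. MRPL53 and MRPS24 were named only by probe sets that carried several symbols and were not analysed here. The gene once called MRPS36 is listed as KGD4 in the annotation and was not a member.

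H460 is an established line of human non-small-cell lung carcinoma. RNA from 4 arrays of sensitive control cells (H460S) and 4 arrays of cells with acquired TRAIL resistance (H460R) was hybridised to Affymetrix arrays. TRAIL is a ligand that triggers apoptosis through death receptors. Per the labels, the resistant cells had received TRAIL every day for 6 months at concentrations below the toxic range. The labels repeat this treatment note for the control arrays, which they otherwise describe as sensitive controls. All cells grew in RPMI medium with serum, no dose is given, and the labels do not say whether the resistant cells were 1 clone or a mixed population. Whether the 4 arrays of each group were grown as independent cultures is not stated, and the tests therefore measure the spread between arrays, which may be technical. Resistance, the TRAIL exposure itself and time in culture cannot be told apart in this design.

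The mitochondrial ribosome translates the few messenger RNAs encoded by mitochondrial DNA, which specify core subunits of the respiratory chain and ATP synthase. Its ribosomal RNAs come from mitochondrial DNA, whereas all its proteins are encoded in the nucleus, made in the cytosol and imported. Some of these proteins descend from proteins of the bacterial ribosome, and others are found only in mitochondrial ribosomes.

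Most mitoribosomal genes were higher in resistant cells, by small amounts. Of the 75 members, 42 rose, 2 fell and 31 did not pass the test. A gene was said to rise or fall when limma's adjusted p was below 0.05. Across all 19775 genes, 14.7% rose and 15.6% fell, 30.3% in all. Because the members were well expressed, with log2 levels from 7.33 to 12.06, genes in that range are a closer background, and 28.4% of the 7397 genes there rose while 26.1% fell. A change is the resistant mean less the sensitive mean of log2(signal + 1), and ± after a change is limma's standard error (n = 4 per group). The median change of the members was 0.37, or 1.29-fold, against -0.03 for all genes and 0.03 for genes in the same range. The estimate was positive for 61 members and negative for 14. On the probe sets used, only MRPS12, MRPL51, MRPL20 and MRPS6 rose at least 2-fold. Of all genes 3.12% did so, and of those in the range 3.49%, and 0 members fell that far. All 4 resistant arrays lay above all 4 sensitive arrays for 49 members, where 16.5% of all genes and 32.5% of those in the range did so. They lay below for 5 members, where 17.4% and 29.2% did so. Without sensitive array 1 and resistant array 4, which correlated least with the other arrays of their groups, 37 members rose and 3 fell.

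**Figure D1:**
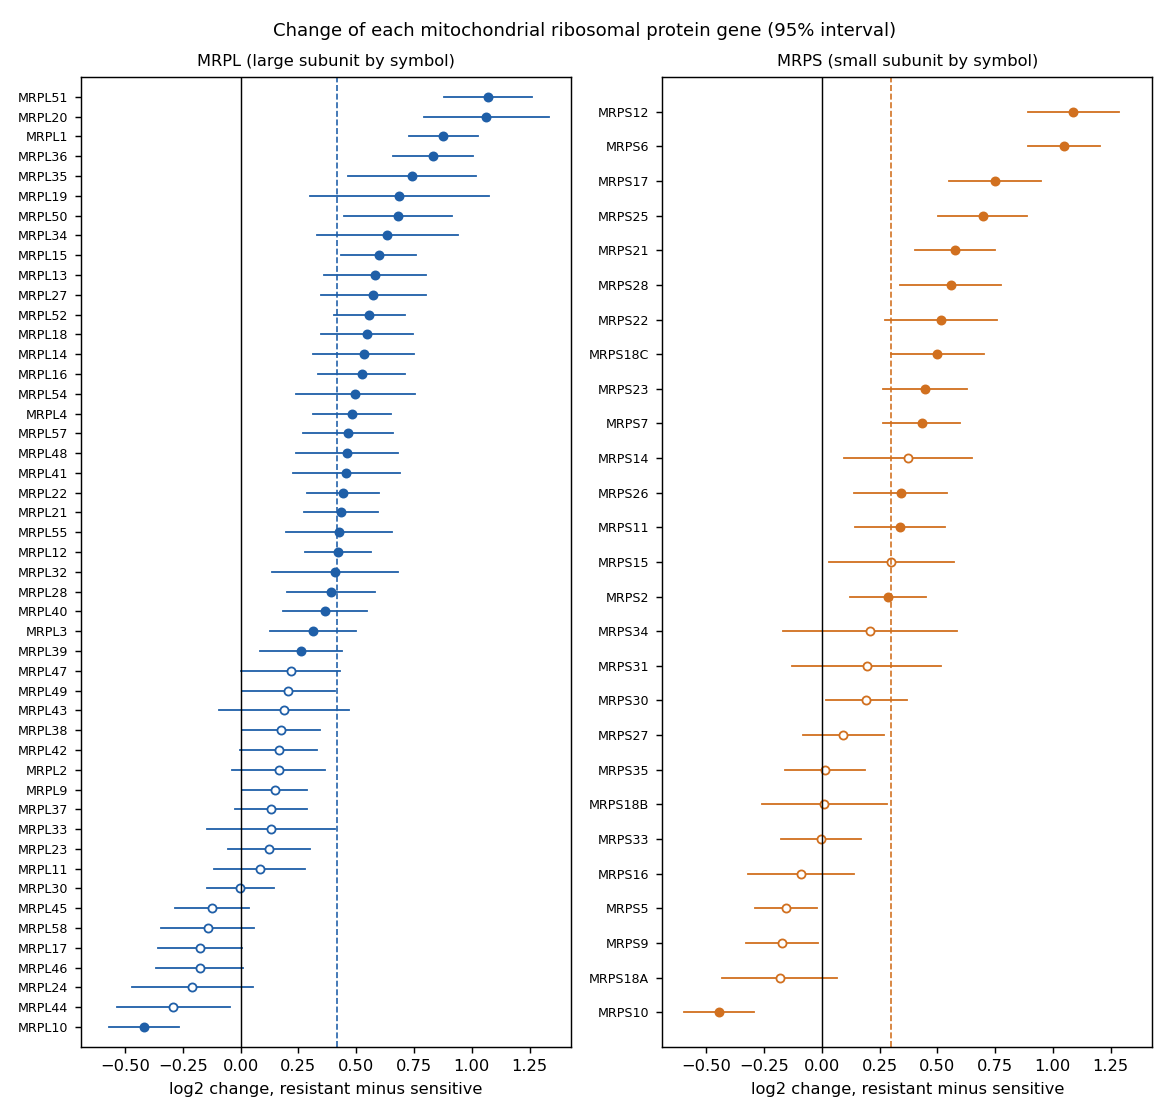
Change of each of the 48 MRPL genes (left, blue) and 27 MRPS genes (right, orange), with its 95% interval from limma. The x axis is the log2 change, resistant minus sensitive; filled circles passed the test, open circles did not, and the dashed lines are the medians of 0.41 and 0.30. In both columns 1 gene, MRPL10 or MRPS10, passed to the left of 0.

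The arrays themselves were comparable. The median signal was 33.3 to 37.4 on sensitive and 32.6 to 34.4 on resistant arrays, and arrays correlated with their own group at 0.955 to 0.965 on average. The 3' minus 5' difference of the GAPDH control probe sets, a measure of RNA degradation and labelling, was -0.15 to -0.13 on sensitive and -0.22 to -0.06 on resistant arrays, so the groups overlapped. That of the ACTB control probe sets was 0.23 on all 4 sensitive arrays and 0.10 to 0.13 on resistant arrays, so this measure moved with the groups as the members did, and its part in their changes was not tested. The keratin genes KRT8, KRT18 and KRT19 of the epithelial line had mean levels of 11.39 to 13.15, and KRT19 fell by 1.24. Of 8 measured markers of leukocytes, endothelium and fibroblasts, with mean levels of 2.21 to 9.96, 0 rose and PDGFRB fell by 1.12. The highest of them was the collagen gene COL3A1, at 9.96 ± 0.06 (SD, n = 4) in sensitive and 9.95 ± 0.08 in resistant arrays.

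The average of the members was also read for each array. Relative to the mean of the sensitive arrays, the 48 MRPL genes deviated on average by 0.30, 0.31, 0.33 and 0.44 on resistant arrays 1 to 4 and by -0.03 to 0.03 on sensitive arrays. The 27 MRPS genes deviated by 0.29, 0.24, 0.31 and 0.34 on resistant arrays and by -0.05 to 0.02 on sensitive arrays. Every resistant array thus lay above every sensitive array for both subunits. Between 55 and 62 of the 75 members lay above their sensitive mean on a resistant array, against 25 to 47 on a sensitive one. Resistant array 4 was the highest for both subunits. Members share their arrays and cells, so these averages describe the 8 arrays and carry no test.

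**Figure D2:**
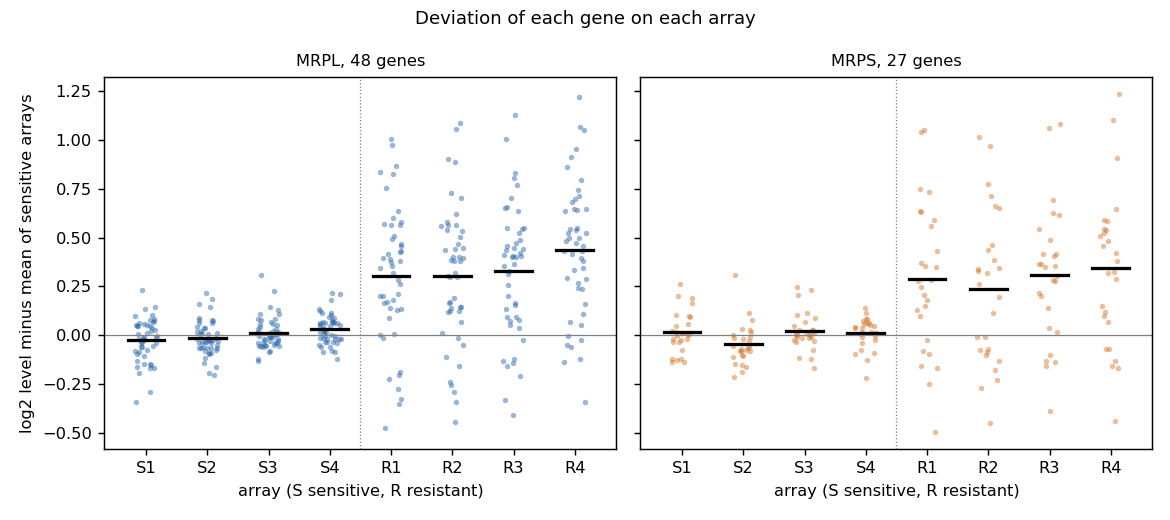
Deviation of each gene's log2 level from its mean over the sensitive arrays, for each array (x axis: S1 to S4 sensitive, R1 to R4 resistant), with MRPL genes left and MRPS genes right; points are genes and black bars are their means. The bars lie between 0.24 and 0.44 on resistant arrays and between -0.05 and 0.03 on sensitive arrays.

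Of the 48 MRPL genes 29 rose and 1 fell, with a median change of 0.41. Of the 27 MRPS genes 13 rose and 1 fell, with a median change of 0.30. The average deviation of MRPL minus that of MRPS genes was 0.02, 0.07, 0.02 and 0.10 on resistant arrays 1 to 4 and -0.04, 0.03, -0.01 and 0.02 on the sensitive arrays. These ranges of means overlapped. With the median deviation of each subunit in place of the mean, the difference was 0.07, 0.09, 0.05 and 0.08 on resistant arrays and -0.02, 0.04, -0.01 and 0.01 on sensitive arrays, which did not overlap. Whether the subunits differ thus depends on the summary used, and the difference of 0.11 between the median changes was not tested. The symbols also do not fully give the place of a protein, since MRPS30 and MRPS18A were found in the large subunit in structures of the ribosome. With both counted there, 29 of 50 large-subunit genes and 13 of 25 small-subunit genes rose, with medians of 0.40 and 0.34.

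The largest rise was that of MRPS12, the counterpart of bacterial S12 at the decoding centre. Its log2 level was 10.14, 9.96, 9.96 and 10.10 on the sensitive arrays and 11.08, 11.05, 11.10 and 11.27 on the resistant arrays. The change was 1.09 ± 0.08 (adjusted p = 0.000118), a 2.13-fold rise, and the groups did not overlap. Further probe sets of MRPS12 above the median level rose as well, by 1.86 and 1.27. MRPL51, a protein of the large subunit with no bacterial counterpart, lay at 10.67, 10.79, 10.77 and 10.63 in sensitive and at 11.72, 11.77, 11.71 and 11.93 in resistant arrays. It rose by 1.07 ± 0.08 (adjusted p = 0.000107) and the groups did not overlap. Its probe set has a suffix for possible cross-hybridisation, as do those used for 46 of the 75 members.

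MRPL20, the counterpart of bacterial L20, which binds ribosomal RNA, lay at 9.96, 10.07, 10.42 and 9.99 in sensitive and 11.08, 11.19, 11.24 and 11.17 in resistant arrays. Sensitive array 3 was the highest of its group and still below every resistant array. The change was 1.06 ± 0.12 (adjusted p = 0.000491). Its other probe sets were dim, at mean levels of 3.85 and 3.63, and with the mean of all its probe sets MRPL20 did not pass (0.75, adjusted p = 0.213). The antisense RNA MRPL20-AS1, whose gene overlaps MRPL20, rose by 0.80 ± 0.17 (adjusted p = 0.0111), from 7.46 ± 0.35 (SD, n = 4) to 8.26 ± 0.06. Sensitive array 1 was the highest of its group for the antisense RNA, at 7.97, and no sensitive array reached the lowest resistant one.

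MRPS6, the counterpart of bacterial S6, had levels of 9.10, 8.97, 9.04 and 9.04 in sensitive and 10.09, 10.01, 10.12 and 10.14 in resistant arrays. Every resistant array lay above every sensitive array. It rose by 1.05 ± 0.07 (adjusted p = 4.96e-05). SLC5A3, a transporter of myo-inositol whose gene overlaps MRPS6, rose by 0.59 ± 0.13 (adjusted p = 0.0123), from 8.56 ± 0.20 to 9.14 ± 0.16 (SD, n = 4). The difference between these 2 rises was not tested.

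**Figure D3:**
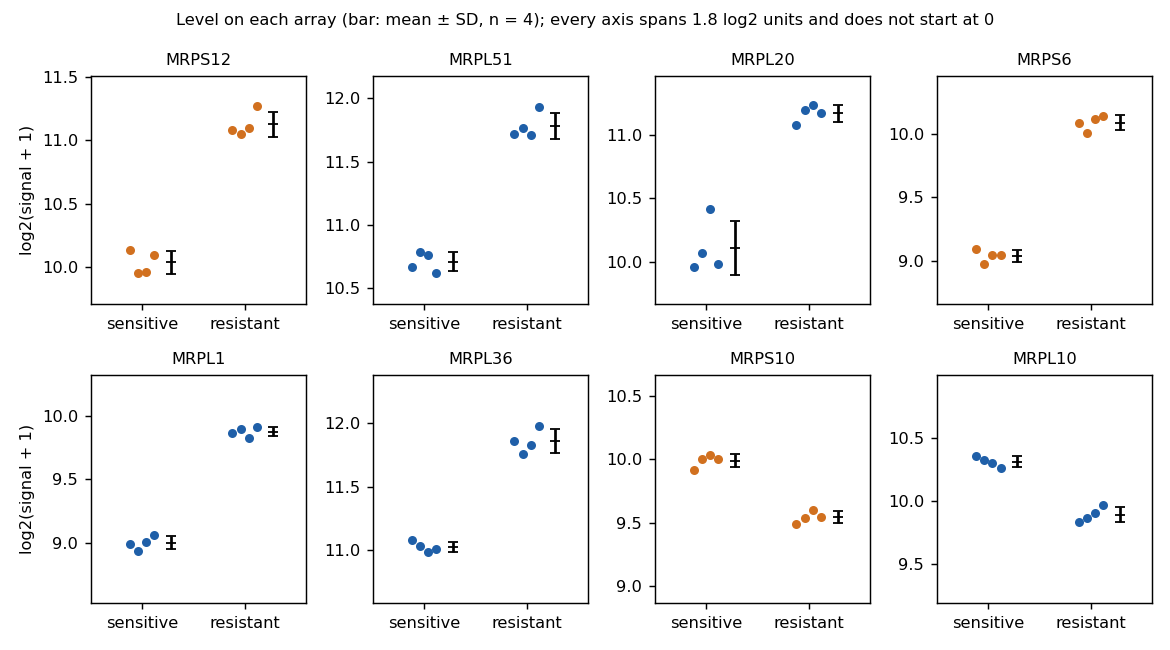
Level of 8 members on each array, as log2(signal + 1); points are arrays, bars give the mean ± SD of 4 arrays, MRPL genes are blue and MRPS genes orange. In each of the 8 panels the groups do not overlap, with resistant arrays higher in 6 and lower for MRPS10 and MRPL10.

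Next among the large-subunit rises was MRPL1, which forms the mobile L1 stalk beside the site where transfer RNAs leave. Its levels were 8.99, 8.94, 9.01 and 9.06 in sensitive and 9.87, 9.90, 9.83 and 9.91 in resistant arrays, a change of 0.88 ± 0.06 (adjusted p = 8.79e-05). MRPL36, a small zinc-binding protein in bacteria, lay at 11.08, 11.03, 10.99 and 11.01 and 11.86, 11.76, 11.83 and 11.98, a change of 0.83 ± 0.07 (adjusted p = 0.000199). For both genes the spread within a group was a small part of the gap between groups. MRPL35 changed by 0.74 ± 0.12 (adjusted p = 0.00277), and its other probe sets rose by 0.40 and 0.72. Among small-subunit genes, MRPS17 and MRPS25 rose by 0.75 ± 0.09 (adjusted p = 0.000597) and 0.70 ± 0.08 (adjusted p = 0.000693). MRPS17 lay at 8.48 to 8.68 in sensitive and 9.24 to 9.50 in resistant arrays, and MRPS25 at 8.68 to 8.93 and 9.44 to 9.59. Further MRPS25 probe sets changed by 0.16 and 0.20 without passing, and with the mean of all its probe sets it did not pass (0.35, adjusted p = 0.146).

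The regions before the genes with the 4 largest rises and the largest fall are shown because mitoribosomal promoters hold known elements of ETS factors such as GABPA and of YY1. They come from RefSeq, build GRCh38.p14, and run from 250 bases before to 30 bases after the annotated start. Capitals mark CCGGAAG, the ETS core, and AAGATGGC, the YY1 element, on either strand. A site of the factor NRF1, GCGCA followed by any base and GCGC, was searched too and is absent from these 5 windows.
MRPS12, chr19:38930694-38930973, plus strand: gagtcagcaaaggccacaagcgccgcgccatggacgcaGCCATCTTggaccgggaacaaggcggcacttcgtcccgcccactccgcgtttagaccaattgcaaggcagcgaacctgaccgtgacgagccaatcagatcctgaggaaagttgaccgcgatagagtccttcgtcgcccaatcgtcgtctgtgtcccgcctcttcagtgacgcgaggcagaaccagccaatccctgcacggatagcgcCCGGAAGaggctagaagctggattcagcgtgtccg
MRPL51, chr12:6493233-6493512, minus strand: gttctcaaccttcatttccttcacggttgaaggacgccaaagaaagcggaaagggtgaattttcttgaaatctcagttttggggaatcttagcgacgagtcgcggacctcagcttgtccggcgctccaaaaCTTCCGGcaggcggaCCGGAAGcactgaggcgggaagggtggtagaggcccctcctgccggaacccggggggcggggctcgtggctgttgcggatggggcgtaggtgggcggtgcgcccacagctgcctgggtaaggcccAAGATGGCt
MRPL20, chr1:1407264-1407543, minus strand: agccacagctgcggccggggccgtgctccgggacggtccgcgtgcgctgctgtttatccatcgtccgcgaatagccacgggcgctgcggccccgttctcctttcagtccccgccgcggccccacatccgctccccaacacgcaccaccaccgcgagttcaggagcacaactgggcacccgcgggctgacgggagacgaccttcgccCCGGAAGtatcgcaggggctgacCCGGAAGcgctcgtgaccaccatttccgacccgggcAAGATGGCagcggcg
MRPS6, chr21:34073328-34073607, plus strand: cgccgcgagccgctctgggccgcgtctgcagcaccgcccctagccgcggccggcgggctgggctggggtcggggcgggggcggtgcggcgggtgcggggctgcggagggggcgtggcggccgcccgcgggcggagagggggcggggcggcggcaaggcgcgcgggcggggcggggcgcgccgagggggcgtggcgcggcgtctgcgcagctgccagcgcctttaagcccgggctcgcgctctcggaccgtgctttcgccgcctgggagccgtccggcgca
MRPS10, chr6:42217832-42218111, minus strand: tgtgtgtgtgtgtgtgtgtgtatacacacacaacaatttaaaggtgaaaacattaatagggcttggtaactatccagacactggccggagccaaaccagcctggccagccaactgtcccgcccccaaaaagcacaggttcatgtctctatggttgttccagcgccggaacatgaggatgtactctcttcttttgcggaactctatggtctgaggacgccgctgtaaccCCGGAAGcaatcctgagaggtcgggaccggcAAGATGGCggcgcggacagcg

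Both elements occurred in the windows of MRPS12, MRPL51 and MRPL20, which rose, and in that of MRPS10, which fell. The window of MRPS6 held none. In the MRPS12 window the YY1 element lay at bases -212 to -205. This is beyond the start of SARS2, a gene on the opposite strand that starts 181 bases away. Windows of members with such a neighbour can thus hold elements of the neighbour, and which gene a match serves was not tested. Promoter windows of 300 bases, 250 before and 50 after the start, were given for 67 of the 75 members and for 15384 of all measured genes. The ETS core was found in 28 of the 67 (41.8%), against 14.4% of all windows and 22.2% of the 6280 windows of genes in the members' level range. The YY1 element was found in 19 (28.4%), against 4.004% and 6.64%, and the NRF1 motif in 8 (11.9%), against 8.78% and 13.7%. Both the ETS core and the YY1 element stood in 8 windows (11.9%), against 0.910% and 1.69%. The ETS core and the YY1 element can overlap, since the one can end in the 3 letters that open the other.

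The shares of members that rose and of the others are given side by side, without a test. The ETS core was in 16 of 37 members that rose (43.2%) and in 12 of 30 others (40.0%). The YY1 element was in 9 of 37 (24.3%) and in 10 of 30 (33.3%). The NRF1 motif was in 3 of 37 (8.11%) and 5 of 30 (16.7%). The E-box CACGTG, which MYC can bind, was in 6 of 67 windows (8.96%, against 8.90% of all and 11.2% of those in the level range). The CCAAT box was in 20 (29.9%, against 36.1% and 37.2%). The GC box GGGCGG was in 40 (59.7%, against 58.9% and 72.5%) and TATAAA in 2 (2.99%, against 8.76% and 4.90%). All motifs were read on both strands. A match describes letters and says nothing of binding in these cells.

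The 2 genes that fell were MRPS10 and MRPL10. MRPS10, the counterpart of bacterial S10, lay at 9.91, 10.00, 10.03 and 10.00 in sensitive and 9.49, 9.54, 9.60 and 9.55 in resistant arrays. The change was -0.44 ± 0.06 (adjusted p = 0.00182). Of its further probe sets, one fell by 0.34 (adjusted p over probe sets 0.0344) and the other changed by -0.27 without passing. MRPL10, which anchors the flexible stalk that recruits translation factors, lay at 10.36, 10.32, 10.30 and 10.26 and 9.84, 9.86, 9.90 and 9.97. It changed by -0.42 ± 0.07 (adjusted p = 0.00251). For both genes every resistant array was below every sensitive array, and both passed under every alternative that gave them a value.

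Proteins of this stalk went different ways. MRPL12, many copies of which sit on MRPL10 and which is also known to bind the mitochondrial RNA polymerase, lay at 10.16, 10.19, 10.12 and 10.22 in sensitive and 10.60, 10.56, 10.58 and 10.63 in resistant arrays. It rose by 0.42 ± 0.06 (adjusted p = 0.00186), without overlap. MRPL11, at the stalk base, changed by 0.08 ± 0.08 without passing (adjusted p = 0.539, 95% interval -0.12 to 0.28). So 1 of these 3 stalk genes rose and 1 fell. A second MRPL12 probe set was dim, at a mean level of 4.05, and changed by -0.50 without passing.

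Around the tunnel through which the new chain leaves, MRPL22 rose by 0.44 ± 0.07 (adjusted p = 0.00204). Its levels were 9.86, 9.91, 9.99 and 9.98 in sensitive and 10.36, 10.37, 10.34 and 10.43 in resistant arrays, without overlap. MRPL23, MRPL24 and MRPL17 changed by 0.12 ± 0.08, -0.21 ± 0.11 and -0.18 ± 0.08, and none of them passed. A dim MRPL23 probe set without a suffix, at a mean level of 4.24, below the median of all probe sets, changed by -1.96 (adjusted p = 0.0391 among probe sets without a suffix). MRPL45, which ties the ribosome to the inner membrane, changed by -0.12 ± 0.07 (adjusted p = 0.231, 95% interval -0.28 to 0.04), and its resistant arrays lay below its sensitive arrays without overlap. MRPL44, a protein related to RNase III, changed by -0.29 ± 0.10 (adjusted p = 0.0747). Its levels were 9.97, 9.60, 9.68 and 9.70 in sensitive and 9.38, 9.39, 9.41 and 9.60 in resistant arrays, and resistant array 4 overlapped the lowest sensitive array.

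Other large-subunit genes rose by 0.26 to 0.69. MRPL19 lay at 9.11, 9.64, 9.40 and 9.66 in sensitive and 10.28, 10.34, 10.09 and 9.85 in resistant arrays and rose by 0.69 ± 0.16 (adjusted p = 0.0174). It had the largest standard error of the 75 members. Its other probe sets, both dimmer but above the median level, changed by 0.09 and 0.01, and with the mean of all 3 the gene did not pass (0.26, adjusted p = 0.140). MRPL50 rose by 0.68 ± 0.10, MRPL34 by 0.63 ± 0.13, MRPL15 by 0.60 ± 0.07, MRPL13 by 0.58 ± 0.09 and MRPL27 by 0.57 ± 0.10. MRPL52, MRPL18, MRPL14 and MRPL16 rose by 0.52 to 0.56, and MRPL54, MRPL4, MRPL57, MRPL48, MRPL41, MRPL21, MRPL55 and MRPL32 by 0.41 to 0.50. Further MRPL4 probe sets rose by 0.63 and 1.57. The latter has no suffix and a lower mean level of 7.34 (adjusted p over probe sets 0.000195), so the size of the MRPL4 rise depends on the probe set. MRPL28, MRPL40, MRPL3 and MRPL39 rose by 0.26 to 0.39. MRPL41, which has been described as a partner of BCL2 in apoptosis, lay at 11.37, 11.34, 11.47 and 11.48 in sensitive and 11.83, 11.73, 11.81 and 12.11 in resistant arrays. Its change was 0.46 ± 0.10 (adjusted p = 0.0112), and a second bright probe set rose by 0.56. Of its dimmer probe sets above the median level, one changed by 0.78 and the other by -0.17, neither passing, and with the mean of all its probe sets MRPL41 did not pass (0.36, adjusted p = 0.138).

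Of the large-subunit genes that did not pass, several had narrow intervals. MRPL30 changed by -0.0017 ± 0.06, with a 95% interval of -0.15 to 0.14. Its levels were 9.94, 9.96, 9.97 and 10.03 in sensitive and 9.96, 9.96, 9.95 and 10.03 in resistant arrays, so the groups overlapped throughout. MRPL9 changed by 0.15 ± 0.06 (adjusted p = 0.113) and MRPL37 by 0.13 ± 0.07 (adjusted p = 0.193), with intervals of 0.01 to 0.29 and -0.02 to 0.29. MRPL58, which frees chains from stalled ribosomes, changed by -0.14 ± 0.09 (adjusted p = 0.268), and MRPL46, of the central protuberance, by -0.18 ± 0.08 (adjusted p = 0.149). The others that did not pass, MRPL2, MRPL33, MRPL38, MRPL42, MRPL43, MRPL47 and MRPL49, had positive estimates of 0.13 to 0.22.

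In the small subunit, MRPS21, MRPS28, MRPS22, MRPS18C, MRPS23 and MRPS7 rose by 0.43 to 0.58. MRPS22, in which mutations cause an inherited deficiency of the respiratory chain, lay at 9.64, 9.41, 9.46 and 9.38 in sensitive and 10.03, 10.19, 9.89 and 9.85 in resistant arrays. It rose by 0.52 ± 0.10 (adjusted p = 0.00786), and a second probe set rose by 0.44. MRPS26, MRPS11 and MRPS2 rose by 0.34, 0.34 and 0.29. MRPS14 and MRPS15 had estimates in the same range, 0.37 ± 0.12 (adjusted p = 0.0513) and 0.30 ± 0.11 (adjusted p = 0.0925), and did not pass. MRPS15 lay at 11.53, 11.96, 11.49 and 11.63 in sensitive and 11.90, 11.97, 11.998 and 11.94 in resistant arrays, and sensitive array 2 lay within the range of the resistant arrays. MRPS5 and MRPS9 changed by -0.16 ± 0.06 (adjusted p = 0.0825) and -0.17 ± 0.07 (adjusted p = 0.0956). For both of them all resistant arrays were below all sensitive arrays, though the adjusted p missed the threshold. MRPS27, MRPS31, MRPS34 and MRPS35 changed by 0.02 to 0.21 and MRPS33 by -0.0017 ± 0.07, and none of the 5 passed.

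The 3 human paralogs of bacterial S18 sit at different places in the ribosome and had different values. MRPS18C lay at 9.96, 9.79, 9.97 and 10.06 in sensitive and 10.53, 10.33, 10.49 and 10.43 in resistant arrays and rose by 0.50 ± 0.09 (adjusted p = 0.00394). MRPS18A changed by -0.18 ± 0.11 (adjusted p = 0.259, 95% interval -0.43 to 0.07) and MRPS18B by 0.01 ± 0.12 (adjusted p = 0.957, 95% interval -0.26 to 0.28). The differences between the paralogs were not tested. A second MRPS18C probe set at a mean level of 5.01 fell by 1.02, so with the mean of its probe sets the gene changed by -0.19 (adjusted p = 0.275). MRPS30, first described as the programmed cell death protein PDCD9, changed by 0.19 ± 0.07 (adjusted p = 0.0972). All 4 resistant arrays, at 10.51 to 10.70, lay above the sensitive arrays, at 10.38 to 10.46.

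Probe sets of MRPS16 went against each other. The one used, at a mean level of 10.82, changed by -0.09 ± 0.10 (adjusted p = 0.562). Another, at 8.25, rose by 0.66 (adjusted p over probe sets 0.00295). In all, 38 members had a single probe set and 37 had several. Of 53 further probe sets above the median level of all probe sets, 41 changed with the same sign as the one used, 11 rose and 2 fell. Those of members that rose comprised 25 probe sets, of which 22 had positive estimates and 10 rose. When every gene was averaged over its probe sets, 32 of the 42 still rose, and MRPL12, MRPL19, MRPL20, MRPL39, MRPL41, MRPL52, MRPL55, MRPS18C, MRPS25 and MRPS26 did not pass.

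Members were also divided, mainly by number. The first part held members named after bacterial proteins, MRPL1 to MRPL36 and MRPS2 to MRPS21, without MRPS18A and MRPS18B. Both of these are named after bacterial S18 too, but were counted with all others, most of which are specific to mitochondria. Neither of them passed. Of the 42 members in the first part, 27 rose and 2 fell, with a median change of 0.43. Of the other 33, 15 rose and 0 fell, with a median of 0.21. The same order was seen in the large subunit, with 19 of 28 against 10 of 20, and in the small subunit, with 8 of 14 against 5 of 13. Of the other 33, 20 had an unadjusted p below 0.05 in limma. So did 7805 of all 19775 genes and 4800 of the 7397 genes in the members' level range. The split was made with the results known and carries no test. The members came from 21 chromosomes, 20 of which held a member that rose.

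Mitoribosomal proteins with other names were also measured. DAP3, a GTP-binding protein of the small subunit that has been described as an adaptor between TRAIL receptors and FADD, lay at 11.85, 11.83, 11.88 and 11.98 in sensitive and 11.61, 11.62, 11.55 and 11.67 in resistant arrays. It fell by 0.27 ± 0.07 (adjusted p = 0.0197), and all resistant arrays were below the sensitive ones. GADD45GIP1, of the large subunit, and CHCHD1, of the small subunit, rose by 0.56 ± 0.10 (adjusted p = 0.00432) and 0.47 ± 0.09 (adjusted p = 0.00757). PTCD3 rose by 0.26 ± 0.08, near the threshold (adjusted p = 0.0486).

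Factors that drive mitochondrial translation went both ways. On the list of 16 there were 4 rises and 1 fall, the other 11 did not pass, and the median change was 0.09. The share that rose, 25.0%, lay between the 14.7% of all genes and the 28.4% of genes in the members' level range. TSFM, the exchange factor for the elongation factor TUFM, rose by 0.82 ± 0.10 (adjusted p = 0.000863), from 8.99, 8.999, 9.10 and 9.31 in sensitive to 10.08, 9.92, 9.86 and 9.85 in resistant arrays. TUFM itself changed by -0.07 ± 0.10 (adjusted p = 0.653). MTFMT, which formylates the initiator transfer RNA, rose by 0.71 ± 0.07, SLIRP, which stabilises mitochondrial messenger RNAs, by 0.41 ± 0.08 and TACO1, an activator of translation, by 0.28 ± 0.07. The initiation factor MTIF3 fell by 0.27 ± 0.08 (adjusted p = 0.0422).

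Of 29 genes of mitoribosome assembly and of the modification of its RNAs, 8 rose, 3 fell and 18 did not pass, with a median of 0.13. The 27.6% that rose is near the 28.4% of genes in the members' level range. TRMT10C, a subunit of mitochondrial RNase P, rose by 1.70 ± 0.08 (adjusted p = 1.75e-05), from 8.38, 8.42, 8.42 and 8.54 to 10.25, 10.17, 10.17 and 9.98. MPV17L2 rose by 1.203 ± 0.23, the helicase gene DDX28 by 0.86 ± 0.08 and MRM2, a methyltransferase of the large ribosomal RNA, by 0.80 ± 0.12. The level of MPV17L2 in sensitive arrays was 6.40 ± 0.39 (SD, n = 4). Of methyltransferases of the small ribosomal RNA, TFB1M fell by 0.99 ± 0.09 (adjusted p = 0.000189) and METTL15 by 0.94 ± 0.12 (adjusted p = 0.000959), while NSUN4 changed by -0.05 ± 0.08 without passing. RMND1 fell by 0.26 ± 0.07.

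The list of mitochondrial DNA maintenance, transcription and RNA decay held 10 rises and 0 falls among 15 genes, with a median change of 0.43. An unadjusted p below 0.05 in limma was found for 13 of the 15. It was found for 7805 of all 19775 genes and for 4800 of the 7397 in the members' level range. The share that rose was 66.7%, against 14.7% of all genes and 28.4% of those in the level range. The replicative helicase gene TWNK rose by 1.33 ± 0.08 (adjusted p = 3.29e-05), from 7.82, 7.75, 7.60 and 7.81 to 9.14, 9.06, 9.03 and 9.08. TFB2M, which opens mitochondrial promoters for the RNA polymerase, rose by 1.26 ± 0.13, PRORP, the nuclease of RNase P, by 1.06 ± 0.24 and MTERF1 by 1.01 ± 0.14. PRORP and MTERF1 rose from low levels, 5.7 ± 0.37 and 5.86 ± 0.24 (SD, n = 4) in sensitive arrays. The RNA polymerase gene POLRMT changed by 0.24 ± 0.10, short of the threshold (adjusted p = 0.122).

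Of 9 regulators of mitochondrial biogenesis, 2 rose (22.2%, against the same 14.7% and 28.4%) and 1 fell. PPARGC1B and PPRC1, coactivators of the PGC-1 family, rose by 1.77 ± 0.19 (adjusted p = 0.000476) and 1.296 ± 0.10 (adjusted p = 0.000120). PPARGC1A fell by 1.19 ± 0.25 (adjusted p = 0.0103). In sensitive arrays PPARGC1A and PPARGC1B both had low levels, 5.34 ± 0.24 and 5.90 ± 0.21 (SD, n = 4), and PPRC1 lay at 7.68 ± 0.15. NRF1, GABPA, GABPB1, YY1, MYC and ESRRA changed by 0.08, 0.12, -0.14, 0.07, 0.17 and 0.18, and none of them passed.

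Proteins of the cytosolic ribosome, measured on the same arrays, mostly had negative estimates, 52 of 60. Among these 60 genes 3 rose (5%, against 14.7% of all genes) and 7 fell (11.7%, against 15.6%), with a median change of -0.38. An unadjusted p below 0.05 in limma was found for 38 of them and for 7805 of all 19775 genes. Their median level was 13.98, above the range of the mitoribosomal genes, and their median standard error was 0.15 against 0.08. For most of them resistant array 4 was the highest of its group. RPL37A stood at 14.03, 14.00, 14.03 and 14.69 on resistant arrays 1 to 4, and RPS23 at 14.10, 14.29, 14.05 and 14.83. On array 4 both lay within their sensitive ranges, 14.63 to 15.00 and 14.70 to 15.03. The part of this array in the changes of the list was not tested. The highest rises were those of RPL7L1 (0.75 ± 0.10) and RPL26L1 (0.65 ± 0.06), both named as paralogs. The largest falls were those of RPLP2 (-0.76 ± 0.23), RPL12 (-0.55 ± 0.16), RPS4X (-0.54 ± 0.17) and RPLP1 (-0.51 ± 0.15), followed by RPL3 (-0.46 ± 0.13). The RPLP2 probe set was dim for this list, at 7.19 ± 0.25 in sensitive and 6.43 ± 0.42 in resistant arrays (SD, n = 4). The difference between the lists was not tested.

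**Figure D4:**
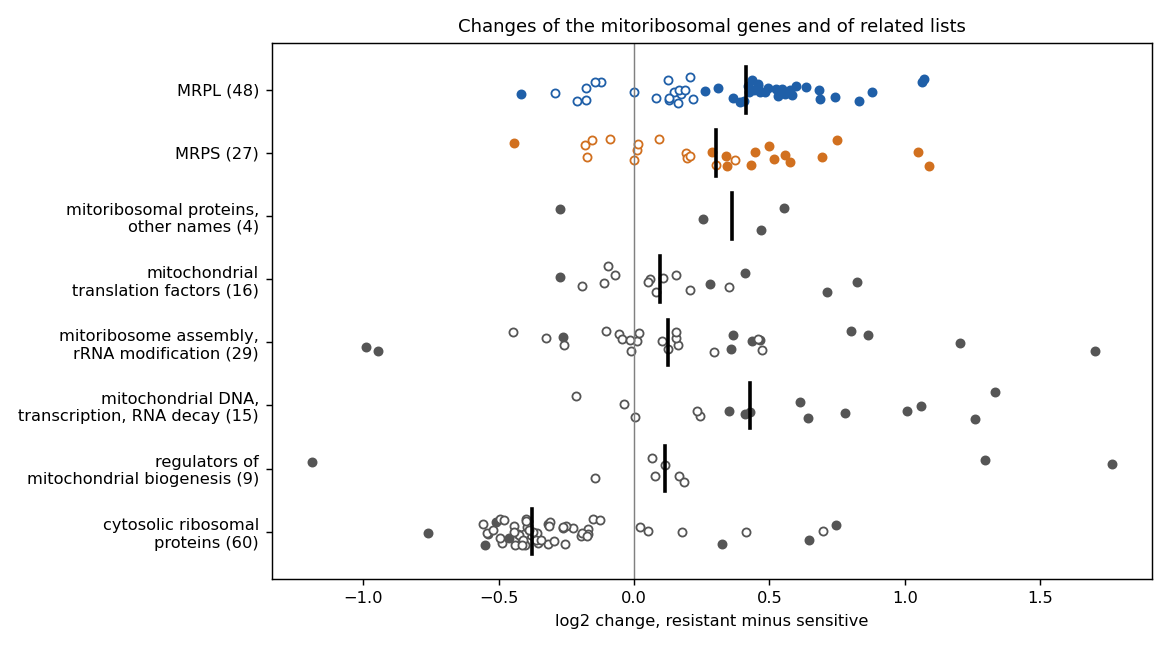
Changes of the MRPL genes, the MRPS genes and 6 related lists, with the number of genes measured in parentheses; each point is a gene, filled where it passed the test, and black bars are medians. The x axis is the log2 change, resistant minus sensitive; the medians are 0.41 and 0.30 for MRPL and MRPS genes and -0.38 for cytosolic ribosomal proteins.

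Many mitoribosomal genes start close to a gene on the opposite strand. In RefSeq, 21 of the 67 members with a promoter window (31.3%) had such a head-to-head neighbour whose start lay up to 1000 bases away, or overlapped by under 100 bases, against 20.3% of all measured genes with a window. Of 15 measured neighbours that were not members, 6 rose, 1 fell and 8 did not pass. Among the 10 next to a member that rose, 5 rose and 1 fell. Of all genes 14.7% rose, and of those in the members' level range 28.4%, and with so few neighbours their counts are a description. MRPS12 starts 181 bases from SARS2, the gene of the mitochondrial seryl-tRNA synthetase. SARS2 changed by -0.25 ± 0.10, short of the threshold (adjusted p = 0.0944), from 7.88 ± 0.13 to 7.63 ± 0.11 (SD, n = 4), beside the rise of MRPS12 by 1.09 ± 0.08.

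In other pairs too 1 gene rose and its neighbour did not. MRPL50 rose by 0.68 ± 0.10 while ZNF189, 233 bases away, changed by -0.33 ± 0.09 and fell (adjusted p = 0.0277). MRPS18C rose and HELQ, a DNA helicase gene 175 bases away, changed by 0.02 ± 0.17 (adjusted p = 0.954). MRPS11 and MRPL46 are neighbours of each other, 320 bases apart, and changed by 0.34 ± 0.08 (adjusted p = 0.0187) and -0.18 ± 0.08 (adjusted p = 0.149). In other pairs both genes rose: MRPL32 with PSMA2, a proteasome subunit (0.42 ± 0.10), MRPL57 with SKA3, a protein of the mitotic spindle attachment (0.94 ± 0.16), and MRPL40 with the histone chaperone gene HIRA (0.81 ± 0.10). So did MRPS2 with PIERCE1 (1.15 ± 0.18) and MRPL51 with NCAPD2 (0.27 ± 0.08). The difference within a pair was not tested.

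**Figure D5:**
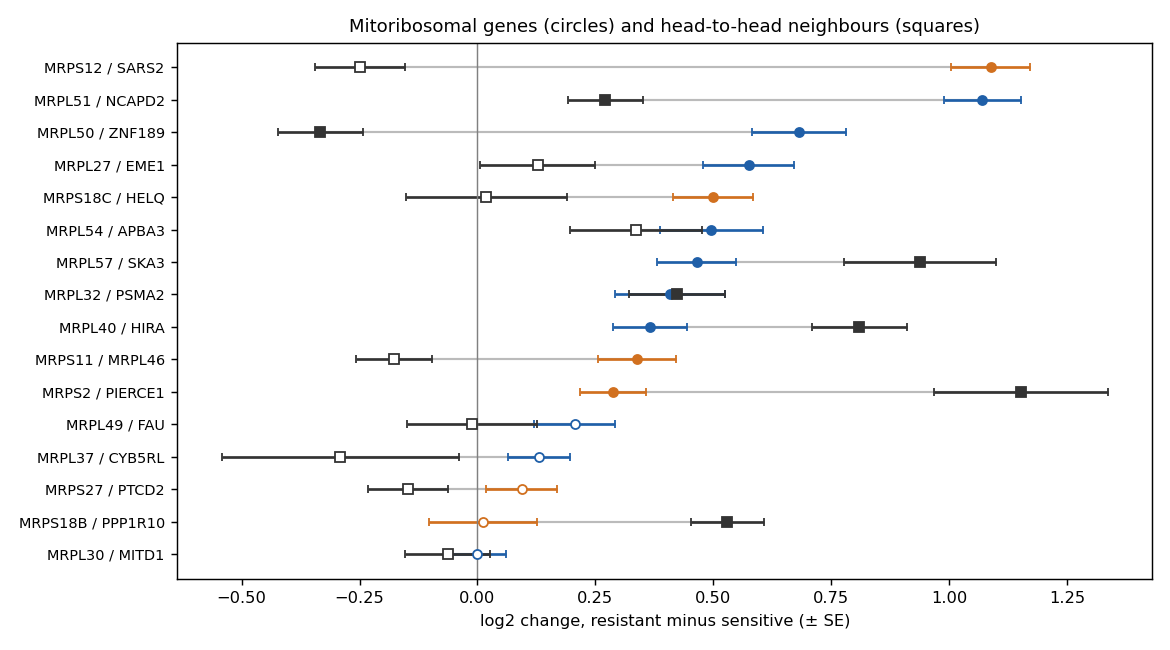
Changes of 16 mitoribosomal genes (circles, MRPL blue and MRPS orange) and of their measured head-to-head neighbours (black squares), as log2 change, resistant minus sensitive, with standard errors; filled symbols passed the test. MRPL46, the neighbour of MRPS11, is itself a member; the widest gap is that between MRPS12 at 1.09 and SARS2 at -0.25.

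Leaving out 1 array kept 37 to 41 members as risen and 2 or 3 as fallen. Of the 42 members that rose, 35 passed in each of these 8 fits. MRPL39 (0.26) was lost without any array other than sensitive array 4, with adjusted p-values up to 0.0961. MRPL32 (0.41) was lost without any array other than sensitive arrays 1 and 2, with adjusted p-values up to 0.0832. MRPS26 was lost without array 2 or 3 of either group, MRPL3 without sensitive array 1 or 3 or resistant array 3, MRPS11 without resistant array 1 or 3, MRPS2 without sensitive array 2 or resistant array 1, and MRPL19 without resistant array 1. Their highest adjusted p-values were 0.0605, 0.0645, 0.0526, 0.0566 and 0.0508. MRPS14 and MRPS15 each passed when 1 array was left out, and MRPL17 passed as lower without resistant array 4.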

How the data were processed

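RNA of the cell line H460, 4 samples per group, was measured on Affymetrix HG-U133 Plus arrays. The authors deposited 1 intensity per probe set and array on a linear scale. The submitters' processing notes name RMA, without a version. The deposited intensities are linear, however, and every array has the same trimmed mean of 200 once 2% of probe sets at each end are left out, so the authors' scaling is known only from the values.

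Here 1 was added, log2 was taken, and 41097 probe sets with a single gene symbol were kept. The probe set with the highest mean represented each of 19775 genes. Groups were compared with limma 3.58.1 in R 4.3.3 (lmFit and eBayes, all genes, Benjamini-Hochberg adjustment over all genes, threshold 0.05). The members and all gene lists were chosen with earlier results of these data known. Genes were named by a rule: up to the 10 largest rises and falls among members that passed, and a set of members with known roles. Further genes and probe sets were named after their values were seen, as was the division by number. The main fit did not pair arrays by replicate number. The correlations of same-numbered deviations were -0.03 to 0.01, which shows no shared deviation but cannot exclude a pairing.

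On simulated data for this comparison over 19775 genes, 8% of 1.3-fold, 56% of 1.5-fold and 88% of 2-fold changes passed. The simulation changed 50 genes at each fold, whereas 5986 genes passed in the real data. The adjustment is stricter where fewer genes change, so these shares may understate the recovery here. The number of arrays limits the precision. Promoter windows were read from RefSeq. Alternatives were another pseudocount, normalization, probe set choice, prior, replicate block, and leaving out arrays.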

Additional observations from a re-analysis of the deposited data

Results flagged for a closer look

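In 13 of the 156 groups of 4 arrays examined, 1 array lay farther from the other 3 than Dixon's criterion allows. Chance gives about 1 in 20 for a single group. The groups share the same 8 arrays, and averages of the members were examined beside the members, so the groups are not independent. In 9 of these groups the array was resistant array 4, which was the highest: MRPL15 stood at 11.09, against 10.93 to 10.94 on the other resistant arrays, and MRPL35 at 11.08, against 10.66 to 10.69. MRPL57 stood at 11.78, MRPL48 at 9.48 and MRPL47 at 11.97 on that array. MRPL17, MRPL30 and MRPL44, which did not pass the test, stood at 10.44, 10.03 and 9.60 there. The average deviation of the MRPL genes on that array was 0.44, against 0.30 to 0.33. Without it, 40 members rose and 3 fell.

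The other 4 groups held a different array each or a different gene. MRPL46 was lowest on sensitive array 2, at 9.42, and MRPL47 highest on sensitive array 1, at 11.64. MRPS7 was highest on sensitive array 4, at 10.34, and MRPS27 lowest on resistant array 2, at 10.88.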

How the results depend on the processing

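With 4 arrays per group, changes under 1.5-fold were often missed in simulated data, in which far fewer genes changed than passed here. A member that did not pass is not shown to be unchanged. MRPL10 fell under all alternatives, and MRPS10 under all but the one without suffixed probe sets, which gave it no value, and 24 of the 42 members that rose passed in all 16 settings with a value for every member. Leaving out 1 array gave 4928 to 5776 genes passing, 37 to 41 risen and 2 to 3 fallen members, medians of 0.38 to 0.44 for MRPL and 0.28 to 0.32 for MRPS genes, and a difference of 0.08 to 0.14. Centring on the median moved the medians to 0.49 and 0.37. The fallen numbered 5 with dim probe sets left out, 4 with the mean of all probe sets and 6 with an intensity trend and robust prior. With the mean of all probe sets, the MRPL median was 0.33 and the difference 0.0498, and with subunits by place the difference was 0.0607. Probe sets without a suffix covered 44 members, of which 18 rose, with medians of 0.34 and 0.19. Signs turned for MRPL12 (-0.0369 with the mean, -0.50 without suffix), MRPL23 (-0.92 and -1.96), MRPS16 (0.29 and 0.66), MRPL39 (-0.0812 without suffix) and MRPS18C (-0.19 with the mean). Their other probe sets enter there, and no further cause was tested. With sensitive array 1 and resistant array 4 left out, chosen after seeing the data, 36 of the 42 still rose.

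With the replicate number as a block, 31 members rose (21 MRPL, 10 MRPS), 2 fell and 4356 was the count of all genes passing. Same-numbered arrays did not deviate together over all genes (correlations -0.03, 0.0048, 0.01 and -0.02). No pairing by number was thus seen in the values, which cannot exclude that same-numbered samples were handled together.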
